A study of Mus musculus with 28 samples.

Results

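The muscle miRNAs mmu-miR-1a-3p, mmu-miR-133a-3p, mmu-miR-133b-3p and mmu-miR-206-3p were followed on mouse miRNA arrays of laser-microdissected knee tissue, and are written below without the species prefix. They were chosen by name, as the mature strands by which this family is usually measured, with earlier results of these data known. They make up 4 of the 569 rows in the deposited table. Of these, 4 of 4 had values among the 438 cartilage rows, and 1 of 4, miR-206-3p, among the 490 subchondral bone rows. The table gave miR-1a-3p, miR-133a-3p and miR-133b-3p no value in any bone array, so those 3 are described in cartilage alone.

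The mice were male wild type C57BL6 animals, operated on both knees at 10 to 12 weeks of age. Destabilization of the medial meniscus (DMM) cuts the ligament that holds the medial meniscus to the tibia and leads to osteoarthritis, while in the sham operation the ligament was exposed and left intact. Cartilage and subchondral bone of the medial tibial plateau were taken 1 or 6 weeks later, which gave 8 groups by tissue, operation and week over 28 arrays. A cartilage group had 3 arrays, and RNA of 3 mice was pooled for every array, while a bone group had 4 arrays of 1 mouse apiece. Cells were not sorted, so an array reads whatever cells the laser lifted.

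Values are log2 signals, so a difference of 1 is a doubling of signal. Array medians ran from 6.26 to 6.32 in cartilage and from 6.17 to 6.39 in bone. For the cartilage arrays one label field names bone and the source field names cartilage. The source field was followed, and miR-140-3p, a miRNA abundant in chondrocytes, read 13.1 to 13.7 in the arrays so named against 8.94 to 9.98 in bone.

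MiRNAs are short RNAs that pair with messenger RNAs, mainly through a seed near their 5′ end, and lower the output of their targets. MiR-1 and miR-133 are made together from bicistronic genes in skeletal and heart muscle. MiR-1 favours muscle differentiation, partly by repressing the histone deacetylase Hdac4, and miR-133 targets serum response factor. MiR-206 has the same seed as miR-1, is largely restricted to skeletal muscle, and is known for its rise in regenerating and denervated muscle.

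The genes form pairs, and only the pairs given here were looked up. In the RefSeq annotation of mouse build GRCm38.p6, Mir206 lay at chr1:20679010-20679082 and Mir133b at chr1:20682769-20682887, with 3686 bases between them. Mir1a-1 lay at chr2:180389048-180389124 and Mir133a-2 at chr2:180398379-180398482, with 9254 bases between them. Mature sequences from RefSeq (GRCm38.p6) were at hand for 2 of the 4 miRNAs and are shown because they share a genomic cluster and not a seed. Capitals mark bases 2 to 8, the seed, written 5′ to 3′.
miR-206-3p: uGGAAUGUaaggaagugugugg
miR-133b-3p: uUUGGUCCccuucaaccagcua

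The 3′ end of miR-206-3p carries a run of alternating G and U that miR-133b-3p lacks. It is shown again beside 5 other measured miRNAs that hold the letters GUGUGUG, since these miRNAs come back in the array-to-array results. Capitals mark the first GUGUGUG in each RefSeq sequence.
miR-206-3p: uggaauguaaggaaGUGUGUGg
miR-32-3p: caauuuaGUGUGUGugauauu
miR-672-5p: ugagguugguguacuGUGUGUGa
miR-1187: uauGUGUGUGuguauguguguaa
miR-574-5p: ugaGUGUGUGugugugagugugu
miR-3082-5p: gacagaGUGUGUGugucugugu

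One week after surgery, the cartilage pools showed miR-206-3p and the other muscle miRNAs on opposite sides. MiR-206-3p, the skeletal muscle form, rose 1.44-fold with DMM, whereas miR-1a-3p, miR-133a-3p and miR-133b-3p had lower mean signals after DMM that did not pass the test. The array values below show how much of this rests on single pools. In such bulk samples, fewer cells of a type and less RNA per cell cannot be told apart.

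MiR-206-3p read 5.73, 6.08 and 6.14 in the DMM pools at 1 week and 5.41, 5.40 and 5.55 in the sham pools. Every DMM pool was above every sham pool, and the sham pools lay within a narrow band. The mean was 5.98 ± 0.22 (SD, n = 3) after DMM and 5.45 ± 0.08 (SD, n = 3) after sham, a log2 difference of 0.53 ± 0.13 (SE, 95% interval 0.25 to 0.80, limma adjusted p = 0.0107). It ranked 51st from the top among the log2 differences of 438 rows. Over all cartilage rows, 27.9% passed the same threshold of 0.05 at 1 week (15.8% higher, 12.1% lower), and 24.9% had every DMM pool above every sham pool, so a call of this kind was common in these arrays.

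MiR-1a-3p, the muscle differentiation miRNA, read 5.26, 5.52 and 4.92 in the DMM pools at 1 week and 6.87, 5.83 and 5.92 in the sham pools. All DMM pools were below all sham pools, and 1 sham pool stood well above the other two. The mean was 5.23 ± 0.30 (SD, n = 3) after DMM against 6.21 ± 0.58 (SD, n = 3), a signal 1.97-fold lower with a log2 difference of -0.97 ± 0.48 (SE, 95% interval -2.02 to 0.07, limma adjusted p = 0.145).

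MiR-133a-3p, its partner from the bicistronic genes, read 5.29, 5.50 and 5.14 after DMM and 6.83, 5.65 and 5.63 after sham. The groups again did not overlap, with the nearest pools 5.50 and 5.63, and the same sham pool was high. The log2 difference was -0.73 ± 0.43 (SE, limma adjusted p = 0.231). For miR-1a-3p and miR-133a-3p, the separation compares with 23.3% of cartilage rows that had every DMM pool below every sham pool at 1 week.

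MiR-133b-3p, encoded beside miR-206, read 5.73, 6.08 and 5.53 after DMM and 7.48, 6.07 and 6.14 after sham. The groups overlapped narrowly, and sham replicate 1 was the high pool once more. The log2 difference was -0.78 ± 0.50 (SE, limma adjusted p = 0.267). These 3 log2 differences were the lowest of the 438 rows, at ranks 438 (miR-1a-3p), 437 (miR-133b-3p) and 436 (miR-133a-3p), yet their standard errors ran from 0.43 to 0.50. Without sham replicate 1 they were -0.64 for miR-1a-3p, -0.32 for miR-133b-3p and -0.33 for miR-133a-3p. The median over the 4 muscle miRNAs was -0.75, beside -0.02 over all cartilage rows.

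Calls at 1 week depended on the fit for 2 members. MiR-1a-3p passed with array weights (-1.17, limma adjusted p = 0.0427), when the fit held the 1-week groups alone (-0.97, limma adjusted p = 0.0204), and without DMM replicate 3 of the 6-week group, which enters through the shared variance (limma adjusted p = 0.0494). MiR-206-3p did not pass without DMM replicate 3 of the 1-week group (0.45, limma adjusted p = 0.0571).

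**Figure D1:**
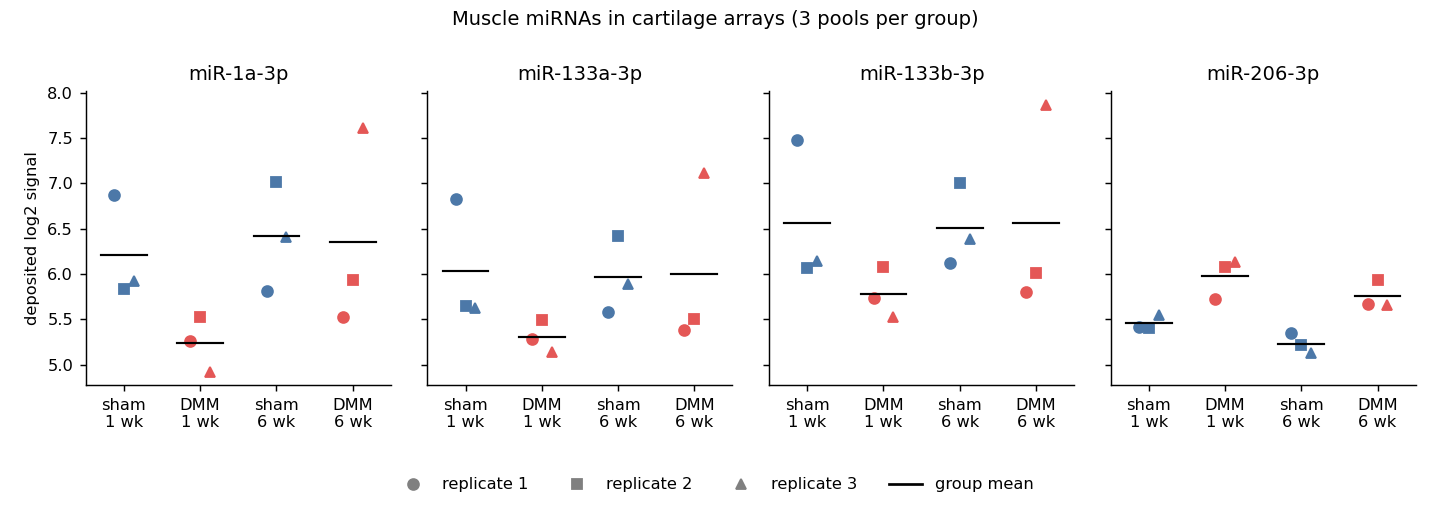
Deposited log2 signal (y axis) of each cartilage pool by operation and week (x axis) for the 4 muscle miRNAs; points are pools, marker shapes are replicate numbers and bars are means of 3 pools. In miR-206-3p the DMM pools sit above the sham pools of the same week, while in the other panels single pools such as DMM replicate 3 at 6 weeks (7.61 for miR-1a-3p) set the spread.

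At 6 weeks miR-206-3p was again higher after DMM, by the same amount, and the other muscle miRNAs had means close to those of sham. MiR-206-3p read 5.67, 5.94 and 5.66 in the DMM pools and 5.35, 5.22 and 5.13 in the sham pools. The groups did not overlap, as was the case in 17.4% of cartilage rows in that direction. The mean was 5.76 ± 0.16 (SD, n = 3) against 5.23 ± 0.11 (SD, n = 3), a rise of 1.44-fold with a log2 difference of 0.53 ± 0.13 (SE, limma adjusted p = 0.0166). At 6 weeks 16.9% of cartilage rows passed (9.59% higher, 7.31% lower).

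MiR-1a-3p read 5.53, 5.93 and 7.61 in the DMM pools at 6 weeks and 5.81, 7.02 and 6.41 in the sham pools. One DMM pool was the highest of all 12 cartilage arrays, the pool at 5.53 was below every sham pool of that week, and the pool at 5.93 lay between them. The log2 difference was -0.06 ± 0.48 (SE, 95% interval -1.10 to 0.98, limma adjusted p = 0.955), an interval that leaves room for a doubling or a halving.

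MiR-133a-3p read 5.39, 5.51 and 7.11 after DMM and 5.59, 6.42 and 5.89 after sham, a log2 difference of 0.04 ± 0.43 (SE, limma adjusted p = 0.955). MiR-133b-3p read 5.80, 6.01 and 7.87 after DMM and 6.12, 7.00 and 6.39 after sham, a log2 difference of 0.05 ± 0.50 (SE, limma adjusted p = 0.955). In both, DMM replicate 3 stood above every other cartilage pool and the groups overlapped. With array weights these differences turned to -0.32 for miR-133a-3p and -0.35 for miR-133b-3p. The call on miR-206-3p at 6 weeks was lost without DMM replicate 2 (0.44, limma adjusted p = 0.0815), without sham replicate 2 (0.52, limma adjusted p = 0.0595), without sham replicate 3 (0.48, limma adjusted p = 0.0641), and in a fit of the 6-week groups alone (0.53, limma adjusted p = 0.0521).

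Averaged over both weeks, the rise of miR-206-3p was 0.53 ± 0.09 on the log2 scale (SE, 95% interval 0.33 to 0.72, limma adjusted p = 0.000966), and it passed in each of the 12 fits that left out 1 cartilage array. The averaged differences were -0.52 ± 0.34 for miR-1a-3p (limma adjusted p = 0.236), -0.34 ± 0.30 for miR-133a-3p (limma adjusted p = 0.377) and -0.36 ± 0.35 for miR-133b-3p (limma adjusted p = 0.422). In this comparison 45.2% of cartilage rows passed (21.2% higher, 24% lower). One array decided the calls on the latter 3, for which all 12 fits gave negative differences. Without DMM replicate 3 at 6 weeks they passed as lower, with differences of -0.83 for miR-1a-3p (limma adjusted p = 0.0178), -0.62 for miR-133a-3p (limma adjusted p = 0.0407) and -0.69 for miR-133b-3p (limma adjusted p = 0.0477).

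**Figure D2:**
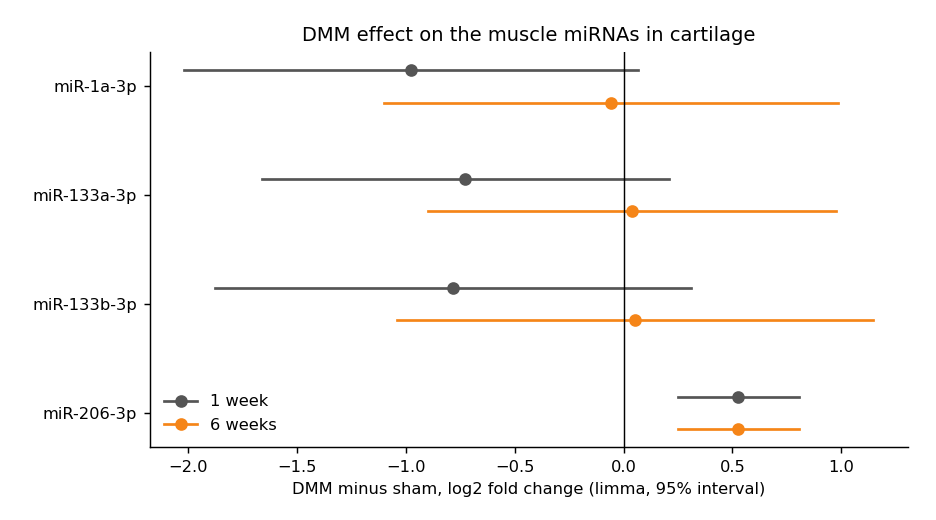
DMM minus sham log2 difference (x axis) in cartilage for each muscle miRNA at 1 and 6 weeks, as points with 95% limma intervals from 12 arrays. The miR-206-3p intervals lie above 0 at both weeks (0.25 to 0.80 at 1 week) and the other 6 intervals cross 0.

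The DMM effect on miR-206-3p changed by -0.0003 between the weeks on the log2 scale (95% interval -0.39 to 0.39, limma adjusted p = 0.999). For the other 3 the effect was 0.77 to 0.92 higher at 6 weeks, with limma adjusted p of 0.999 each and standard errors of 0.61 to 0.71. Single pools set this size: it was 0.18 to 0.29 without DMM replicate 3 at 6 weeks, and 0.37 to 0.58 without sham replicate 1 at 1 week. Here 0% of cartilage rows passed after adjustment, and 13 of 438 had an unadjusted limma p under 0.05.

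Time after surgery was compared within each operation, and no member passed. In the DMM pools miR-1a-3p was 1.12 ± 0.48 (SE) higher at 6 weeks than at 1 week on the log2 scale, the highest difference of the 438 rows, with a limma adjusted p of 0.194. Its lowest pool at 6 weeks (5.53) only just cleared its highest at 1 week (5.52). Of all cartilage rows 4.79% passed in that comparison, and 13% had all 6-week DMM pools above all 1-week DMM pools. MiR-133b-3p was 0.78 and miR-133a-3p 0.69 higher, at ranks 3 and 4, with overlapping groups. Without DMM replicate 3 at 6 weeks these differences were 0.50 for miR-1a-3p, 0.12 for miR-133b-3p and 0.14 for miR-133a-3p. MiR-206-3p was -0.22 ± 0.13 (SE) in the DMM pools, with overlap (limma adjusted p = 0.345).

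In the sham pools miR-206-3p was also lower at 6 weeks by -0.22 ± 0.13 (SE, limma adjusted p = 0.363), and here the weeks did not overlap, as in 10.3% of rows in that direction. The other 3 differed by -0.07 to 0.21 between sham groups, with overlap. In sham cartilage 0.228% of rows passed. From low to high, the miR-206-3p means were thus sham at 6 weeks (5.23), sham at 1 week (5.45), DMM at 6 weeks (5.76) and DMM at 1 week (5.98). The differences between the 2 sham groups and between the 2 DMM groups did not pass the test, and the step from sham at 1 week to DMM at 6 weeks was not tested.

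Within groups, the 4 muscle miRNAs differed sharply in how much they varied. The pooled within-group SD was 0.74 for miR-133b-3p, 0.71 for miR-1a-3p and 0.63 for miR-133a-3p, which ranked 2nd, 4th and 7th among 438 rows, beside a median of 0.17. MiR-206-3p had an SD of 0.15 and ranked 273rd. MiR-1a-3p spanned 4.92 to 7.61 over the 12 arrays, from the lowest 0.228% of rows on one array to the 79.7th percentile on another. MiR-206-3p stayed between 5.13 and 6.14. The lowest 5% of rows on a cartilage array lay below 5.30 to 5.46, so the sham signals of miR-206-3p, and the DMM signals of miR-1a-3p and miR-133a-3p at 1 week, were at or near the dim end, and the table used holds no detection flags.

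Those swings were shared by miR-1a-3p, miR-133a-3p and miR-133b-3p and not seen in miR-206-3p. After the group means were removed, Pearson's r over 12 arrays was 0.976 between miR-1a-3p and miR-133a-3p, 0.977 between miR-1a-3p and miR-133b-3p, and 0.998 between miR-133a-3p and miR-133b-3p (adjusted permutation p = 2e-05 each over 6 pairs, where 1e-05 is the smallest raw p the resampling gives). Spearman's rho for these pairs was 0.93, 0.94 and 0.99 (adjusted permutation p = 0.0001, 6e-05 and 6e-05). Those resamplings moved values freely between groups, although the group means had been removed. With labels exchanged only within groups, an alternative added after seeing the data, the adjusted exact permutation p was 0.00309 for each r. Without the 2 arrays farthest from the median, r was 0.962, 0.962 and 0.992, and within each week it was 0.969 or more. Arrays share their labelling and scan as well as their cells, and the 12 values come from pools, so r describes these arrays. No miR-133a-3p sequence was at hand to set beside that of miR-133b-3p. Whether their probes read separate RNAs was not tested, so these rows may not count as separate signals.

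MiR-206-3p had r of -0.32 with miR-1a-3p, -0.31 with miR-133a-3p and -0.28 with miR-133b-3p (rho -0.34, -0.31 and -0.29), with an adjusted permutation p of 0.373 for each r and 0.366 for each rho. Without the 2 farthest arrays r was -0.18, -0.18 and -0.12. At 1 week r lay between -0.21 and -0.13, and at 6 weeks between -0.47 and -0.43. A negative r that misses the threshold does not show that the rows vary independently. In the pool with the highest miR-1a-3p (DMM replicate 3 at 6 weeks, 7.61), miR-206-3p read 5.66, the lowest of its group.

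**Figure D3:**
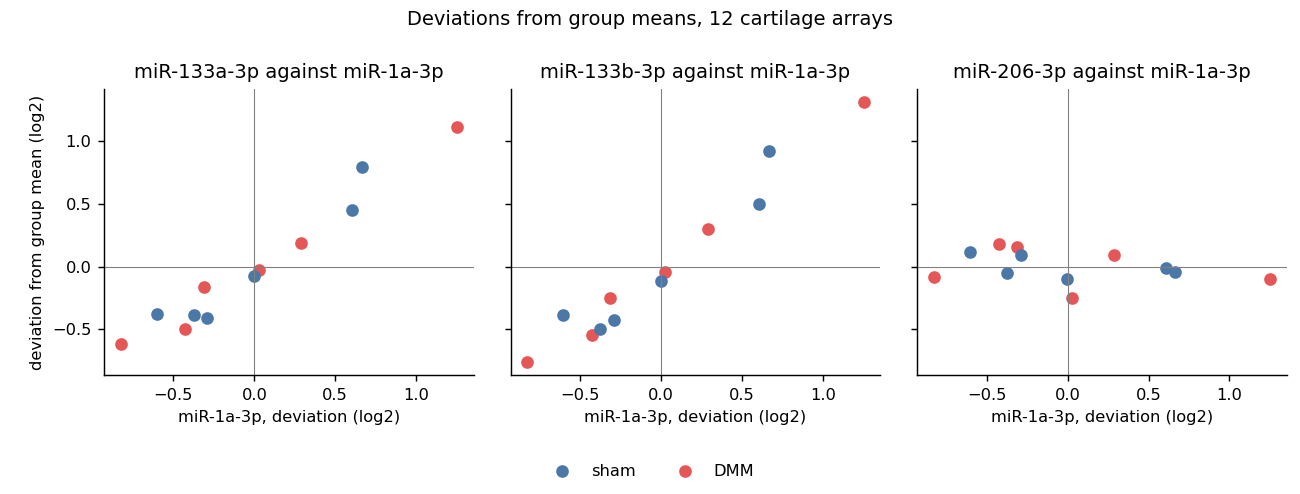
Deviation of each cartilage array from its group mean (log2) for miR-133a-3p, miR-133b-3p and miR-206-3p (y axis) against that of miR-1a-3p (x axis); each point is 1 of 12 pools, coloured by operation. Both miR-133 panels rise along a line (r = 0.976 and 0.977). The miR-206-3p panel shows no such rise (r = -0.32), and its points spread less on the shared y axis.

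A direct test asked if the DMM effect on miR-206-3p differs from that on each of the others, from the per-array log2 difference of the 2 rows. MiR-206-3p minus miR-1a-3p read 0.47, 0.55 and 1.22 in the DMM pools at 1 week and -1.46, -0.43 and -0.37 in the sham pools, with no overlap. At 6 weeks it read 0.14, 0.01 and -1.95 after DMM and -0.47, -1.80 and -1.28 after sham, with 1 DMM pool below all sham pools. Averaged over the weeks, DMM shifted this difference by 1.04 (exact permutation p = 0.05, two-sided). The shift was 0.87 against miR-133a-3p (exact permutation p = 0.07) and 0.89 against miR-133b-3p (exact permutation p = 0.085). Adjusted over the 3 pairs, each exact permutation p was 0.085, and the smallest p that 400 arrangements allow is 0.005. Without DMM replicate 3 at 6 weeks the shifts were 1.38, 1.17 and 1.24, with an adjusted exact permutation p of 0.01 each.

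Among all other cartilage rows, the nearest to miR-1a-3p by r were miR-133b-3p and miR-133a-3p, at places 1 and 2 of 437. MiR-206-3p stood at places 344, 357 and 349 for miR-1a-3p, miR-133a-3p and miR-133b-3p. The same 5 rows outside the family came next for all 3. For miR-1a-3p they were miR-196a-5p, encoded in a Hox cluster (r = 0.859), miR-342-3p (0.785), miR-146a-5p (0.782), miR-195a-5p (0.779) and miR-107-3p (0.768). Among these, miR-196a-5p fell with DMM at 1 week by 0.45 (limma adjusted p = 0.0188), and miR-342-3p by 0.57 and miR-107-3p by 0.62 at 6 weeks (limma adjusted p = 0.0172 and 0.00643).

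MiR-206-3p kept other company. Its 5 nearest cartilage rows were miR-669e-5p (r = 0.911), miR-466c-5p (0.903), miR-467c-5p (0.892), miR-466j (0.892) and miR-669o-5p (0.889), of families known mainly from the large miRNA cluster inside the mouse Sfmbt2 gene. Like miR-206-3p, these 5 rows passed as higher after DMM at both weeks, with log2 differences of 0.89 to 1.14 at 1 week and 0.77 to 1.05 at 6 weeks.

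The GUGUGUG letters shown above were looked for in the mature RNA strand, in the 466 of 569 rows that matched a RefSeq sequence. The motif was picked after these values were seen, so it gets no test. In cartilage 8 of 364 rows with a sequence held it (2.2%), miR-206-3p among them. The other 7 were miR-32-3p, miR-574-5p, miR-669n, miR-672-5p, miR-1187, miR-3082-5p and miR-6348. Their r with miR-206-3p was 0.74 to 0.87, where the 356 rows without the letters had a median of -0.10 and reached 0.892 in miR-466j. All 7 were among the rows higher after DMM at 1 week, by 1.12 to 1.92 (median 1.60), and at 6 weeks, by 0.98 to 1.42 (median 1.30). Rows without the letters had a median of -0.03 at 1 week, with 40 higher and 45 lower and the highest at 2.59. At 6 weeks their median was -0.05, with 18 higher and 27 lower and the highest at 1.76. Among rows with a sequence, neither the high r nor the rise was thus limited to those with the letters. Of the rows nearest to miR-206-3p, miR-669e-5p, miR-466c-5p, miR-467c-5p and miR-669o-5p matched no sequence and were not part of this split. MiR-206-3p, at 0.53, lay below each of the other 7 rows with the letters. A match is a description of letters only, and whether it bears on the array signal was not tested.

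**Figure D4:**
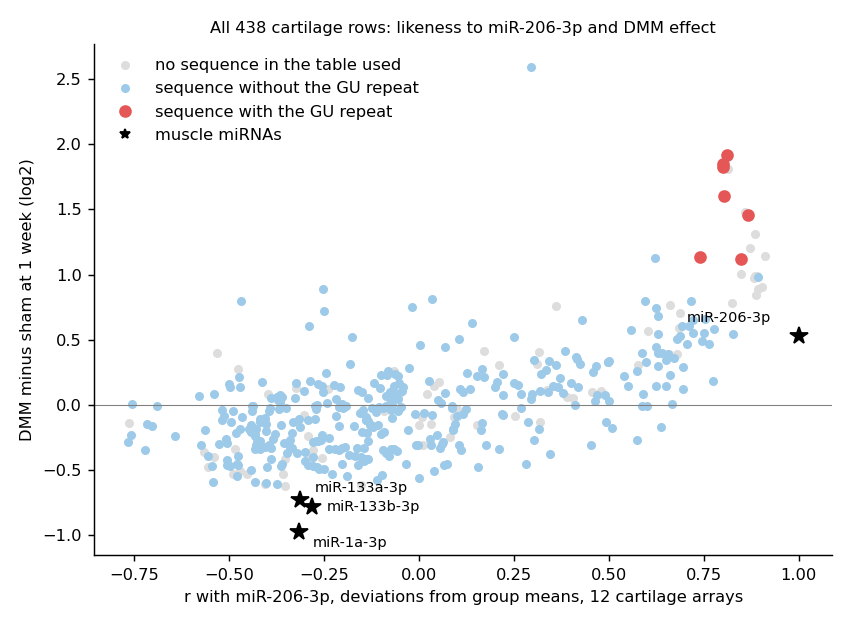
Each point is 1 of 438 cartilage rows, placed by its r with miR-206-3p over 12 arrays (x axis, deviations from group means) and its DMM minus sham log2 difference at 1 week (y axis). The 7 other rows with the repeat sit at r 0.74 to 0.87 and differences of 1.12 to 1.92, near miR-206-3p on the x axis and far from miR-1a-3p, miR-133a-3p and miR-133b-3p at the lower left.

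Other miRNAs linked to muscle were sparse in cartilage. Of 20 listed rows 3 had values: miR-499-3p, from an intron of a slow myosin gene, miR-208a-5p, from a cardiac myosin gene, and miR-486a-5p, abundant in muscle and in red blood cells. The table gave no cartilage value to miR-499-5p, miR-208a-3p or miR-206-5p, nor to the 5p strands of miR-1a and miR-133. MiR-499-3p rose with DMM at 1 week by 0.55 ± 0.13 (SE, limma adjusted p = 0.0101) and was 0.39 higher at 6 weeks (limma adjusted p = 0.0540). Its r with miR-206-3p was 0.83. MiR-208a-5p differed by -0.18 and -0.08 and did not pass. MiR-486a-5p fell at 6 weeks by 0.50 (limma adjusted p = 0.0283). The count was thus 1 higher and 0 lower of 3 at 1 week, and 0 higher and 1 lower at 6 weeks, beside 15.8% higher and 12.1% lower over all rows at 1 week and 9.59% and 7.31% at 6 weeks. The medians of the 3 were -0.16 and -0.08, against -0.02 and -0.04 over all rows.

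Markers of other cell types moved in part with the operation, and these values stand beside the muscle results without a test of their role. The mean log2 signal of the 2 of 4 erythroid miRNAs with values (miR-451a and miR-486a-5p) was 6.53 to 6.96 in the DMM pools and 7.09 to 8.18 in the sham pools at 6 weeks. For 3 of 5 leukocyte miRNAs (miR-142a-3p, miR-223-3p, miR-342-3p) it was 6.29 to 6.78 against 6.88 to 8.02. At 1 week both lists overlapped between operations, at 6.37 to 6.75 against 6.31 to 6.86 for the erythroid and 6.42 to 6.83 against 6.45 to 6.95 for the leukocyte list.

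The 4 cartilage miRNAs (both strands of miR-140 and miR-455) read 9.91 to 10.18 after DMM and 10.31 to 10.51 after sham at 1 week, without overlap. At 6 weeks they read 10.02 to 10.34 against 10.22 to 10.40. Of the pools with high miR-1a-3p, DMM replicate 3 at 6 weeks ranked 7th of 12 for the erythroid, 9th for the leukocyte and 2nd for the fibroblast list. Sham replicate 1 at 1 week ranked 5th and 4th for the erythroid and leukocyte lists, and sham replicate 2 at 6 weeks ranked 2nd for both. For the fibroblast list these sham pools ranked 4th and 3rd, so all 3 pools with high miR-1a-3p were among its top 4 of 12. Its ranks 4 and 5 were nearly tied, at 8.033 and 8.027. The pool it ranked 1st, DMM replicate 1 at 1 week, had a miR-1a-3p signal of 5.26. In the order named above, the 3 pools ranked 4th, 5th and 3rd for the cartilage list. For the endothelial list, with a value for 1 of 2 miRNAs, they ranked 10th, 3rd and 5th. Of 4 smooth muscle miRNAs (both strands of miR-143 and miR-145a), none had a cartilage value in the table used. What part these lists play in the muscle results was not tested.

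In subchondral bone no difference of miR-206-3p between DMM and sham passed the test at either week. At 1 week it read 5.80, 6.05, 6.33 and 6.17 after DMM and 6.38, 5.86, 5.91 and 6.10 after sham. The groups lay on top of each other, with a log2 difference of 0.02 ± 0.24 (SE, 95% interval -0.50 to 0.54, limma adjusted p = 0.999). At 6 weeks it read 6.20, 6.46, 7.00 and 7.14 after DMM and 6.41, 6.28, 7.30 and 6.51 after sham. Again the groups overlapped, with a difference of 0.07 ± 0.24 (SE, 95% interval -0.44 to 0.59, limma adjusted p = 0.998), and averaged over the weeks it was 0.05 ± 0.17 (SE, limma adjusted p = 0.998).

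None of the 490 bone rows passed in these comparisons (0%), with 3, 2 and 2 rows under an unadjusted limma p of 0.05. Array weights changed the bone calls: miR-206-3p then passed as higher after DMM at 6 weeks (0.49, limma adjusted p = 0.0498) and averaged over the weeks (0.38, limma adjusted p = 0.0123). With those weights 54 of the 490 rows passed at 6 weeks and 182 averaged over the weeks. The weight estimation stopped before convergence in several fits. The intervals at either week include the cartilage difference of 0.53. The DMM effect in cartilage minus that in bone was 0.50 ± 0.31 at 1 week (SE, limma adjusted p = 0.486) and 0.45 ± 0.31 at 6 weeks (SE, limma adjusted p = 0.789), where 0.279% and 0.557% of the 359 rows measured in both tissues passed. A difference between the tissues was therefore not shown.

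**Figure D5:**
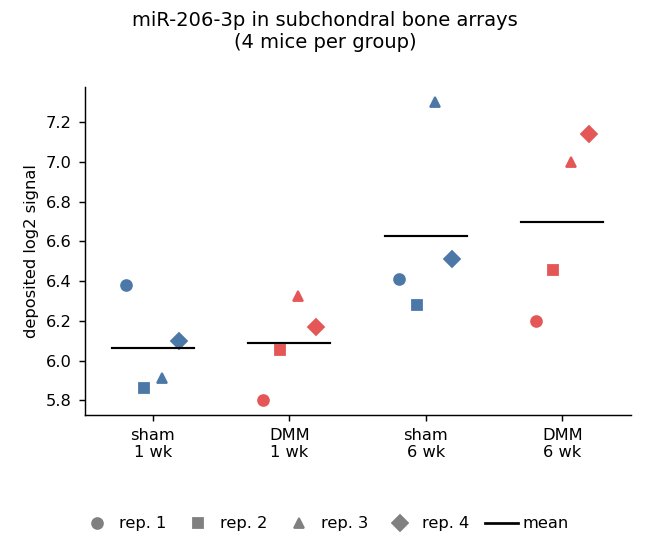
Deposited log2 signal of miR-206-3p (y axis) in each subchondral bone array by operation and week (x axis); points are single mice, marker shapes are replicate numbers and bars are means of 4. DMM and sham overlap at both weeks, and the highest values (7.00 to 7.30) are all at 6 weeks.

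The larger differences in bone were between weeks. MiR-206-3p was 0.56 ± 0.24 higher at 6 weeks than at 1 week in sham bone (SE, limma adjusted p = 0.414) and 0.61 ± 0.24 higher after DMM (SE, limma adjusted p = 0.212). The weeks overlapped in both, at 6.28 against 6.38 in sham and 6.20 against 6.33 after DMM. No bone row passed after adjustment (0%), while 54 and 95 rows had an unadjusted limma p under 0.05. With array weights miR-206-3p passed in both, at 0.61 in sham (limma adjusted p = 0.0117) and 0.83 after DMM (limma adjusted p = 0.000115). Those weights also let 140 of the 490 bone rows pass in sham and 274 after DMM. In cartilage the same comparisons gave -0.22 in each operation.

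By level, miR-206-3p had bone means of 6.06 ± 0.24 (sham, 1 week), 6.09 ± 0.22 (DMM, 1 week), 6.63 ± 0.46 (sham, 6 weeks) and 6.70 ± 0.45 (DMM, 6 weeks; SD, n = 4 each). Sham and DMM of the same week, neighbours in this order, did not pass the test, and the step from DMM at 1 week to sham at 6 weeks was not tested. It stood between the 29.6th and 72.2nd percentile of rows on the bone arrays and between the 1.14th and 42.9th on the cartilage arrays. No source used here says how the tissues were scaled to each other, so no fold between tissues is drawn. Its within-group SD in bone was 0.36, close to the row median of 0.33.

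The rows nearest to miR-206-3p in bone were miR-3064-5p (r = 0.994), miR-539-5p (0.992), miR-669f-5p (0.992), miR-294-3p (0.991) and miR-670-5p (0.990) over 16 arrays, none of which passed for DMM. Of 399 bone rows with a sequence 9 held GUGUGUG (2.26%), and the 8 other than miR-206-3p had r of 0.77 to 0.98 with it. The 390 rows without the letters had a median of -0.10 and reached 0.994, and 4 of the 5 nearest rows (all but miR-669f-5p) were among them. Like miR-206-3p, the 8 other rows with the letters were higher at 6 weeks than at 1 week. Their median difference was 0.97 in sham and 1.10 after DMM, and none passed. Rows without the letters had medians of -0.11 in sham and -0.05 after DMM. Of the 20 other muscle rows 6 had bone values (miR-208a-5p, miR-378a-3p, miR-378a-5p, miR-486a-3p, miR-486a-5p, miR-499-3p), and none passed in any bone comparison. Their DMM differences lay between -0.17 and 0.09 at the 2 weeks.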

How the data were processed

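Values were used as the authors deposited them: log2 signals of Agilent mouse miRNA arrays, taken as log2 from their range of 4.08 to 16.7. Limma 3.20.9 is named in the submitters' processing notes; background correction, normalization and the row filter, which left different rows per tissue, were left unstated there, and differences of probes near background may be compressed. Group-means models were fitted per tissue over all rows (12 or 16 arrays) with limma 3.58.1 in R 4.3.3, eBayes and Benjamini-Hochberg adjustment, threshold 0.05. The tissue difference used 28 arrays and 359 rows. Ratios between members were tested by exact permutation of operation within week, and correlations of deviations from group means with 100000 permutations (scipy 1.17.1). Those tests were possible in cartilage alone, since 3 members had no bone values, and were adjusted over 3 and 6 pairs. The number of arrays limits precision. The limma step was tested on simulated data. Named are the 4 members, the listed muscle rows, the 5 rows nearest each member, and lists that moved with them; the motif rows were added afterwards. Members and lists were chosen with earlier results of these data known. Alternatives covered normalization, a filter on dim rows, prior variance, array weights, arrays in the fit, each array left out and the replicate number as a block; labels exchanged within groups were added after seeing the data. In cartilage the replicate numbers did not pair arrays; in bone the labels carry none.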

Additional observations from a re-analysis of the deposited data

How the results depend on the processing

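Of 1068 member values and counts recomputed under alternatives, 990 kept their direction and side of the threshold. The counts of members passing in cartilage (1 at 1 week, 1 at 6 weeks, 1 averaged) became 0 in each comparison without rows below the median level, where 219 rows and 1 member, miR-133b-3p, remained. That filter removed miR-206-3p, the member that passed, so those counts are set by the filter itself. With array weights they became 2 at 1 week and 2 averaged, and in bone 1 at 6 weeks, 1 averaged, 1 between sham weeks and 1 between DMM weeks, in place of 0; the weight estimation stopped before convergence in several fits. With the compared groups alone they were 2 at 1 week and 0 at 6 weeks. Leaving out each array gave counts of 0 to 2 at 1 week, 0 to 1 at 6 weeks and 1 to 4 averaged, and shifts of miR-206-3p of 0.86 to 1.38 against miR-1a-3p, 0.66 to 1.17 against miR-133a-3p and 0.65 to 1.24 against miR-133b-3p. MiR-206-3p kept a positive cartilage difference under all alternatives that tested it, 0.44 to 0.65 at 1 week (limma adjusted p 0.000778 to 0.0571) and 0.44 to 0.58 at 6 weeks (limma adjusted p 0.00280 to 0.0815). In the array-weight fits of bone miR-206-3p passed in 4 comparisons, with its sign kept. Sign changes concerned differences that were -0.07 to 0.21 in the fits reported above. These did not pass before or after the change. The 6-week cartilage differences of miR-133a-3p and miR-133b-3p became -0.32 and -0.35 with array weights. The change of the DMM effect on miR-206-3p became 0.051 in cartilage on centring at the 75th percentile, and -0.13 in bone, or -0.029 after quantile normalization. With arrays left out, signs turned within -0.52 to 0.35 (miR-133a-3p), -0.60 to 0.44 (miR-133b-3p) and -0.68 to 0.35 (miR-1a-3p) at 6 weeks. Between sham weeks the ranges were -0.30 to 0.32, -0.31 to 0.40 and -0.096 to 0.54. For the change of effect on miR-206-3p the range was -0.13 to 0.078 in cartilage and -0.097 to 0.28 in bone. For its DMM effect in bone it was -0.056 to 0.13 at 1 week, -0.073 to 0.30 at 6 weeks and -0.025 to 0.16 averaged. The cause of these changes was not tested.

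Over all rows, the cartilage counts of 122 at 1 week and 74 at 6 weeks ranged over 42 to 172 and 20 to 189, the averaged count of 198 over 110 to 251, the sham-week count of 1 over 0 to 68 and the DMM-week count of 21 over 6 to 35. In bone array weights moved counts of 0 to 38, 54 and 182 for DMM and to 140 and 274 between weeks, and tissue-difference counts of 1 and 2 to 52 and 32. Correlations kept their side of the threshold, also when labels were exchanged only within groups (exact permutation, adjusted p = 0.00309 for the 3 close pairs and 0.461 for those with miR-206-3p), an alternative chosen after seeing the data.

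Same-numbered cartilage arrays correlated at -0.49 to 0.44 (median -0.25, 18 pairs, 3 over 0.1), so the numbers were not taken as pairs. With the replicate block, miR-206-3p differed by 0.53 at both weeks (limma adjusted p = 0.0271 and 0.0393), and the block changed no member's call; the count over all rows at 6 weeks became 43. The fit of the compared groups alone was not run where a comparison uses all groups, since it is the same fit. The ratios and correlations could not be fitted in bone. Depth has no counterpart here beyond signal over background, which the table used does not give; dim rows such as miR-206-3p in sham cartilage have the least support.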
